A study of Arabidopsis thaliana with 18 samples.

Results

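Leaves of salted Arabidopsis thaliana plants that had then been given MEA, the extract made with methanol from Ascophyllum nodosum (a brown seaweed), were compared between 5 days and 1 day of treatment. The comparison holds 6 of the 18 arrays of the study, 3 titled MEA+NACl on day 5 and 3 titled MEA+NACl on day 1, and they were chosen by those titles alone. All plants were 2 weeks old, and all had first stood in 150 mM NaCl for 24 hours, the controls included. The other 12 arrays come from plants that then received EAA, the ethyl acetate sub-fraction of the extract, or 0.1% aqueous methanol, again with 3 arrays on each day. The methanol arrays, called the salt reference here, name no extract beside NaCl in the source name. Their titles instead name EAA and no NaCl, and every value of the reference rests on the source name. No genotype or accession line is given. Read by the source name of the reference arrays, no group without salt was among the arrays used here. The labels call the 3 arrays of a group biological replicates without saying whether plants were pooled or grown apart, so the p-values measure the spread between these arrays, which may be partly technical.

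Salt stress reaches a leaf both as lack of water and as an excess of sodium, and the hormone abscisic acid carries much of the response. Late embryogenesis abundant (LEA) proteins and dehydrins protect proteins and membranes during drying, co-chaperones keep heat shock proteins at work, and sugar transporters and cell wall enzymes change as growth slows. Leaf gene expression also follows the hour of the day through the circadian clock and through light, which set the levels of genes for chlorophyll synthesis, light harvesting and starch turnover. The labels give no hour of harvest, and its part in any difference between arrays was not tested.

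Each array reads its probe sets, groups of short probes that mostly stand for 1 gene, and the deposited values are log2 signals, so that a difference of 1 is a 2-fold difference. Of 22810 probe sets, 13648 passed a filter on the mean signal over all 18 arrays (4.01), and 7314 of those pair with 1 gene in the platform annotation. RCA, the activase of Rubisco and the 1 leaf marker of 10 that has a named probe set, read 13.37 to 13.48 on day 1 and 13.56 to 13.80 on day 5 with MEA. The root genes PYK10 and EXPA7, the 2 of 10 root markers with a probe set, averaged 3.10 and 3.21 on day 1 and 3.20 and 3.37 on day 5, under the filter, and none of 8 flower and seed markers had a named probe set. Because RNA of whole leaves was measured, fewer cells of a type and less RNA per cell cannot be told apart.

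The 3 MEA arrays of day 5 did not resemble each other. Replicates 1 and 3 correlated at 0.964 with each other across probe sets, and replicate 2 correlated at 0.857 and 0.836 with them, while the 3 MEA arrays of day 1 correlated at 0.986 to 0.993. Replicate 1 correlated at 0.957 to 0.964 with the MEA arrays of day 1 and at 0.848 to 0.898 with the EAA arrays of day 5. Replicate 3 did so at 0.966 to 0.969 and at 0.810 to 0.876. For replicate 2 the order was turned, with 0.851 to 0.859 against MEA on day 1 and 0.962 to 0.978 against EAA on day 5. Replicates 1 and 3 therefore lay closer to the day 1 arrays of all 3 treatments than to the reference or EAA arrays of day 5, against their label, and replicate 2 lay with the day 5 arrays of the other treatments. An exchange of labels, or a different hour of harvest, cannot be told apart here from a difference between the plants, and every MEA value of day 5 is that of the array so labelled. Across probe sets the median SD within the MEA day 5 group was 0.337. It was 0.137 for the day 1 arrays with MEA, and the reference and EAA groups had 0.126 to 0.201. Results on day 5 with MEA are given mainly per array for that reason. Some genes are given by the fitted mean of the 3 arrays alone, which can hide a gap between them.

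Control probes at the 3' and 5' ends of the same transcript also differed among these arrays. The 3' signal of GAPDH exceeded the 5' signal by 2.11 in MEA day 5 replicate 1, by 0.89 in replicate 2 and by 1.35 in replicate 3, against 0.56 to 0.90 on day 1. With the second actin probe pair the difference was 2.88, 1.56 and 2.30 in replicates 1, 2 and 3, against 1.63 to 1.82 on day 1. EAA day 5 replicate 1 had 2.24 for GAPDH and 2.78 for actin. The other pairs did not all go the same way. The first actin pair gave 4.11, 3.60 and 4.01, against 3.76 to 4.40 on day 1, so replicates 1 and 3 were not raised. A second GAPDH pair gave 1.06, 0.11 and 0.30, against 0.14 to 0.39, with replicate 1 alone above. Ubiquitin gave 1.90, 1.44 and 2.02, against 1.48 to 1.70. A larger difference is a common sign of shorter RNA, and its part in the results below was not tested.

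A probe set was counted as moved in a day 5 array when it lay at least 1 log2 unit from the mean of the 3 MEA arrays of day 1 and beyond all 3 of them. Replicate 1 had 604 moved probe sets (4.43% of those tested), 266 of them higher (1.95%) and 338 lower (2.48%). Replicate 2 had 2728 (20.0%), 1169 higher (8.57%) and 1559 lower (11.4%). Replicate 3 had 480 (3.52%), 135 higher (0.989%) and 345 lower (2.53%). Counted the same way, the reference arrays of day 5 had 1894 to 2279 moved probe sets and the EAA arrays 1926 to 2965. Replicate 2 thus lay within the range of the day 5 arrays without MEA, and replicates 1 and 3 lay below it.

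**Figure D1:**
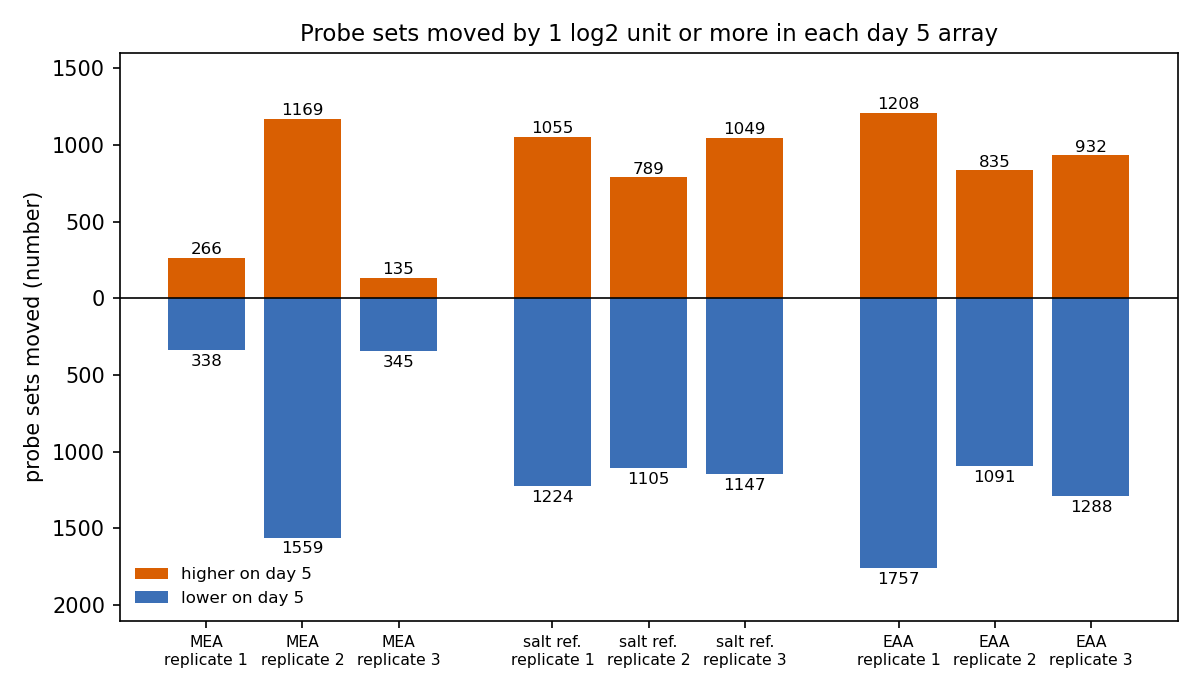
Number of probe sets that moved by at least 1 log2 unit from the day 1 mean of the same treatment and beyond its 3 day 1 arrays, upward bars for higher and downward bars for lower signal, in each of the 9 day 5 arrays. MEA replicates 1 and 3 have 604 and 480 moved probe sets, and the 7 other arrays have 1894 to 2965.

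The arrays without MEA gave a measure of time that no MEA array entered. A linear model over those 12 arrays (limma, Benjamini-Hochberg adjustment over all 13648 probe sets, adjusted p under 0.05) called 5683 probe sets between the days in the reference (41.6%), 2665 higher (19.5%) and 3018 lower (22.1%). With EAA it called 6260 (45.9%), 2801 higher (20.5%) and 3459 lower (25.3%). Centring each array on its median moved the higher share from 46.9% to 57.7% in the reference and from 44.7% to 57.8% with EAA. A set of 4427 probe sets (32.4%) was called in the same direction in both. Of these, 2094 moved in that direction in MEA replicate 2 (47.3%), 259 in replicate 1 (5.85%) and 175 in replicate 3 (3.95%). Against the direction, 2 moved in replicate 2, 82 in replicate 1 and 70 in replicate 3. As a share of the mean change of the reference and EAA, the median over the 4427 was 1.059 in replicate 2, 0.207 in replicate 1 and 0.084 in replicate 3. The 6 day 5 arrays that define the change had shares of 0.907 to 1.106, so replicate 2 carried a change over time of the size seen without MEA, and replicates 1 and 3 carried a small part of it.

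**Figure D2:**
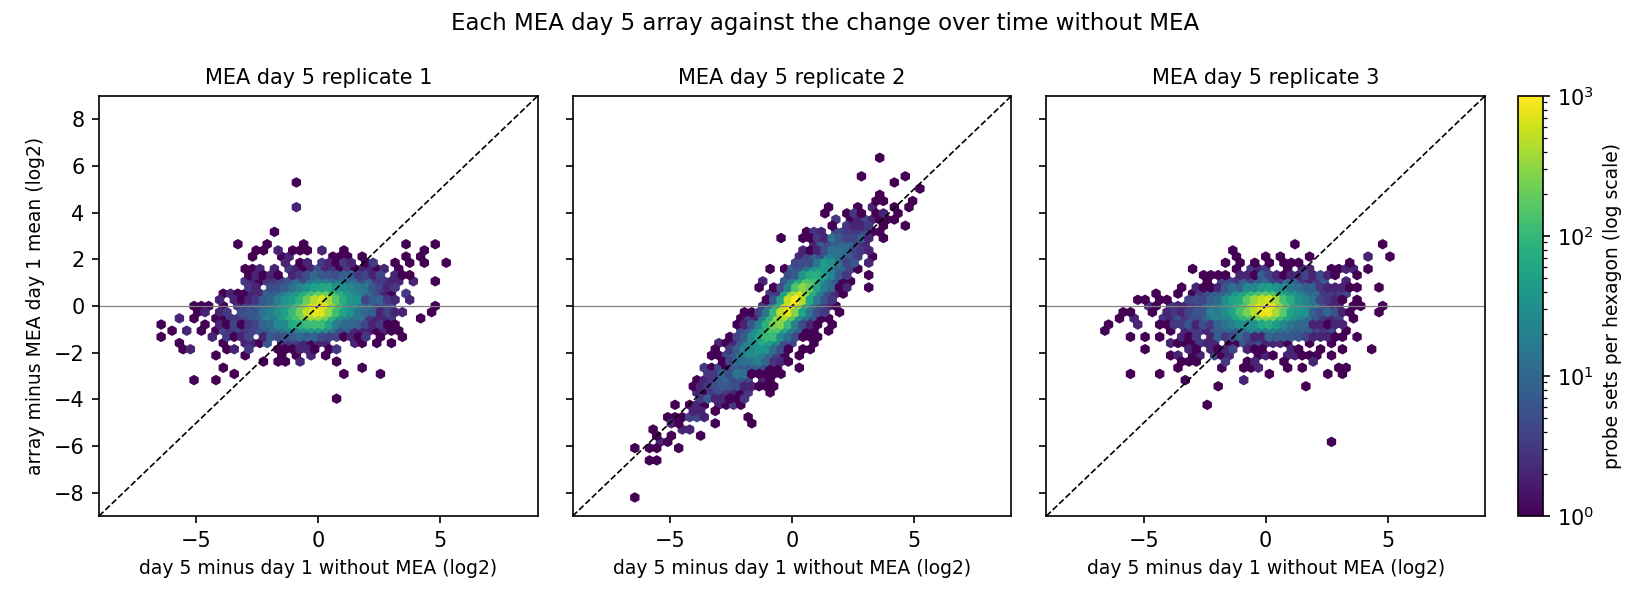
Each hexagon holds probe sets, coloured by their number on a log scale; the horizontal axis is the day 5 minus day 1 difference averaged over the reference and EAA, the vertical axis the difference of 1 MEA day 5 array from the MEA day 1 mean, both in log2, and the dashed line marks equal values. Replicate 2 follows the dashed line, while replicates 1 and 3 stay near 0 on the vertical axis over most of the horizontal range.

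Few probe sets moved the same way in all 3 MEA arrays of day 5. They numbered 85 (0.623% of those tested), 38 higher and 47 lower, and replicate 2 was the farthest from day 1 in 72 of them. Median centring of the arrays gave 86, 48 higher and 38 lower. Among the 85, 36 pair with 1 gene, 17 higher and 19 lower, and only COR27 and LCR69 have a symbol besides the locus code. The smallest difference inside the class was 1.001, and the closest probe set outside it had 0.999 in its least changed array.

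The genes of this class fell or rose in the leaves without MEA as well. Of the 38 higher, 37 were called higher in the reference (97.4%, against 19.5% of all probe sets) and 36 with EAA (94.7%, against 20.5%). Of the 47 lower, 43 were called lower in the reference (91.5%, against 22.1%) and 42 with EAA (89.4%, against 25.3%). None was called in the opposite direction in either. The median change over time of the class, in its own direction, was 2.69 in the reference and 1.93 with EAA. Leaving out each of those 12 arrays in turn kept between 78 and 82 of the 85 called the same way in the reference, and between 76 and 80 with EAA.

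COR27 (AT5G42900), a cold-regulated gene whose protein acts in the circadian clock, was lower by far on day 5. It read 8.96, 8.64 and 8.94 in MEA replicates 1, 2 and 3 of day 1 and 5.61, 3.51 and 5.82 on day 5. The groups did not overlap, and replicate 2 was lowest, near the bottom of the signal range. The differences from day 1 were -3.24, -5.33 and -3.02. Without MEA, COR27 fell by 4.69 in the reference (SE 0.24, adjusted p = 2.9e-08, limma) and by 3.90 with EAA (SE 0.24, adjusted p = 1.85e-07), 3 arrays a day each. Replicates 1 and 3 thus covered less of the fall than replicate 2 did.

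LCR69 (AT2G02100), a small cysteine-rich protein of the defensin type, had the same order of arrays. It read 10.17, 10.49 and 10.30 on day 1 and 8.54, 5.55 and 8.90 on day 5 with MEA. All 3 arrays of day 5 were below day 1, with differences of -1.77, -4.77 and -1.42. LCR69 fell by 3.45 in the reference (SE 0.19, adjusted p = 4.55e-08, limma) and by 3.75 with EAA (SE 0.19, adjusted p = 2.46e-08).

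Among the falls known by locus code alone, some were spread like COR27 and others much less. AT1G07050 read 8.73, 8.23 and 8.56 on day 1 and 5.18, 2.95 and 6.59 on day 5. AT4G33980 read 7.70, 7.19 and 7.34 on day 1 and 5.53, 2.80 and 5.90 on day 5. In both, replicate 2 was far below the other 2 arrays, and all 3 lay under day 1. AT3G59350 read 8.02, 8.35 and 8.03 on day 1 and 5.89, 5.48 and 5.87 on day 5. AT2G23910 read 5.57, 4.83 and 5.56 on day 1 and 2.98, 3.17 and 3.08 on day 5. The day 5 arrays of AT3G59350 spanned 0.41, with replicate 2 again the lowest. Those of AT2G23910 spanned 0.19 at the low end of the signal, and replicate 2 was not the lowest. AT2G16660 lay between the patterns, with differences of -2.96, -3.87 and -2.25.

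The changes over time of these 5 genes without MEA were all falls. They fell by 1.82 (AT3G59350, SE 0.25, adjusted p = 9.38e-05) to 5.48 (AT1G07050, SE 0.15, adjusted p = 2.14e-10) in the reference. With EAA the falls ran from 1.23 (AT2G23910, SE 0.28, adjusted p = 0.00362) to 4.67 (AT1G07050, SE 0.15, adjusted p = 1.13e-09).

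None of the 17 named genes that were higher in all 3 arrays has a symbol besides its locus code. AT2G15020 read 5.02, 5.08 and 4.64 on day 1 and 7.07, 9.0 and 6.58 on day 5 with MEA. AT1G64500 read 5.15, 5.60 and 4.87 on day 1 and 7.05, 9.10 and 6.67 on day 5. In both genes all 3 arrays were above day 1 and replicate 2 was the highest by about 2 log2 units. AT1G55960 differed from day 1 by 1.66, 2.11 and 1.43 in replicates 1, 2 and 3, and AT5G22390 by 1.56, 1.36 and 1.48, with no gap between its arrays. AT1G13650 read 4.87, 5.45 and 3.95 on day 1 and 6.36, 6.15 and 7.34 on day 5, so that replicate 3 was the highest and the spread was wide on both days. In the reference, AT2G15020 rose by 4.33 (SE 0.18, adjusted p = 5.34e-09) and AT1G64500 by 4.26 (SE 0.15, adjusted p = 1.46e-09), while AT1G13650 did not pass the test (1.45, SE 0.70, adjusted p = 0.118).

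**Figure D3:**
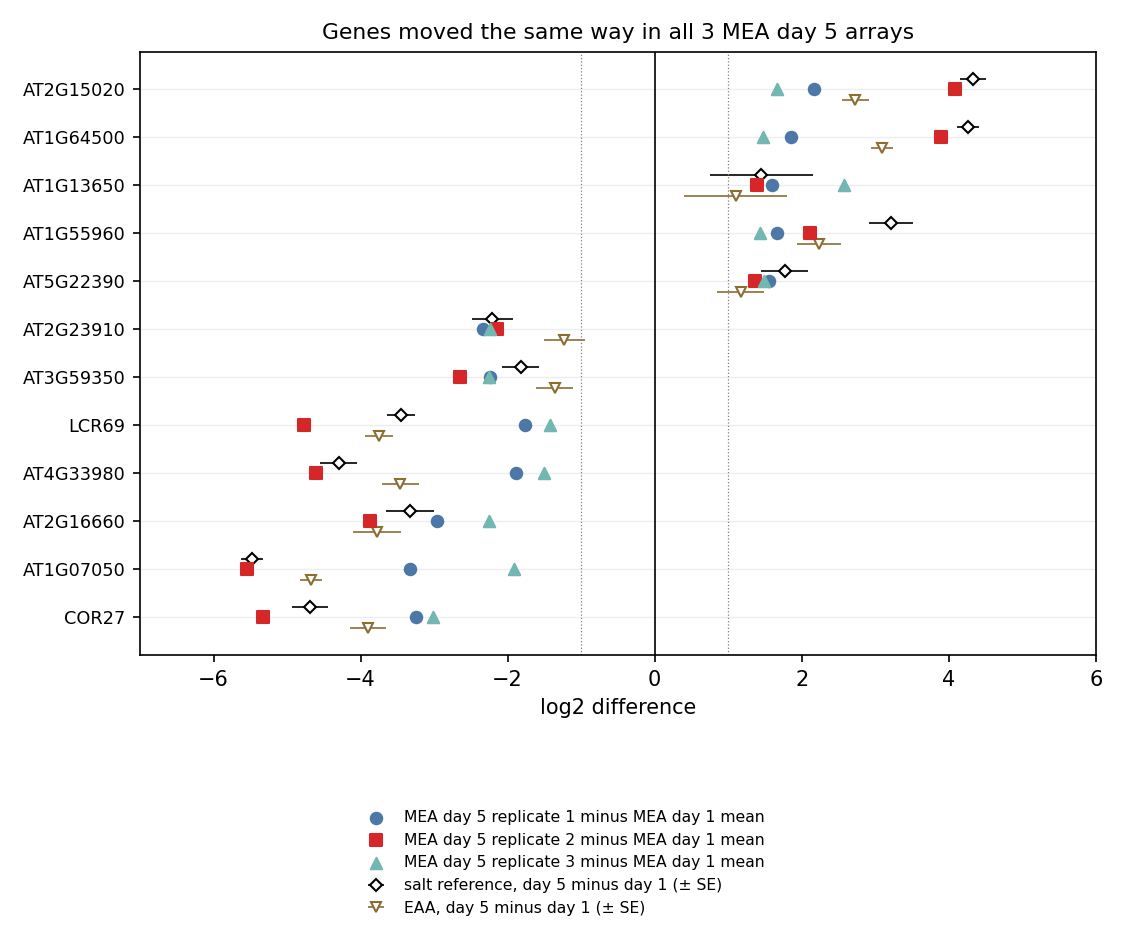
Log2 difference of each MEA day 5 array from the MEA day 1 mean (filled symbols) for the 12 genes named among those that moved in all 3 arrays, with the day 5 minus day 1 difference of the reference and EAA (open symbols, bars ± SE, 3 arrays a day). Replicate 2 stands apart for COR27, LCR69, AT1G07050, AT4G33980, AT2G15020 and AT1G64500, and the 3 arrays lie together for AT5G22390 and AT2G23910.

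A far larger class moved in replicate 2 alone. It held 1190 probe sets (8.72% of those tested), 543 higher and 647 lower, in which replicate 2 had moved while replicates 1 and 3 each lay within 0.5 of the day 1 mean. After median centring of the arrays it held 1239, 705 higher and 534 lower. By the same rule 61 probe sets moved in replicate 1 alone and 35 in replicate 3 alone. Of the 2728 probe sets moved in replicate 2, 253 moved the same way in replicate 1, 174 in replicate 3 and 85 in both, and 2199 moved in neither. The members nearest the limits had a difference of 1.00 in replicate 2, or of 0.50 in replicate 1 or 3.

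Most of the class had moved over time without MEA too. Of its 1190 probe sets, 960 were called the same way in the reference (80.7%) and 4 the opposite way. With EAA, 1118 were called the same way (93.9%) and 0 the opposite way, where 20.5% of all probe sets were called higher and 25.3% lower. The median change in the direction of the class was 0.93 in the reference and 1.15 with EAA. Of the 543 rises, 47 had a day 1 mean under the filter, so a call higher without MEA is partly built in for them. In the smaller classes the picture differed. Of the 61 moved in replicate 1 alone, 10 were called the same way in the reference (16.4%) and 11 the opposite way. Of the 35 moved in replicate 3 alone, 10 were called the same way (28.6%) and 4 the opposite way. These shares lie near the 19.5% and 22.1% of all probe sets called higher and lower.

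BGLU44 (AT3G18080), a beta-glucosidase that splits sugars from plant glucosides, had the largest fall in replicate 2 alone among genes with a symbol. It read 11.14, 10.95 and 11.11 on day 1 and 10.75, 6.0 and 11.19 on day 5 with MEA. The differences from day 1 were -0.31, -5.07 and 0.13, so replicates 1 and 3 also lay just outside the day 1 arrays, on opposite sides, and only replicate 2 was far from them. BGLU44 fell by 4.27 in the reference (SE 0.31, adjusted p = 5.5e-07, limma) and by 4.87 with EAA (SE 0.31, adjusted p = 2.39e-07).

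Other falls by the rule for named genes were smaller. CSLC04, a glucan synthase for the backbone of xyloglucan, read 7.76, 7.60 and 7.74 on day 1 and 7.51, 5.22 and 8.02 on day 5. HTB2, a histone H2B, read 7.15, 6.85 and 6.93 on day 1 and 6.55, 4.87 and 7.28 on day 5. In both, replicate 2 was by far the lowest, replicate 1 lay just under the day 1 arrays and replicate 3 above them. FTSZ2-2, a plastid division protein, read 7.95, 7.91 and 8.01 on day 1 and 7.59, 5.97 and 8.0 on day 5. HEME1, a uroporphyrinogen decarboxylase of tetrapyrrole synthesis, read 8.01, 8.10 and 7.80 on day 1 and 7.61, 6.13 and 8.41 on day 5. Replicate 2 differed by -1.98 for FTSZ2-2 and by -1.84 for HEME1, and replicate 1, by -0.36 in both, also lay under the day 1 arrays. The calmodulin-binding protein IQD22, the endoglucanase GH9B7, the carboxypeptidase-like SCPL45, ACA.l and the carnitine transporter homolog OCT5 had differences of -3.24 (ACA.l) to -1.84 (OCT5) in replicate 2 and of -0.36 to 0.48 in the other arrays. Over time without MEA, 9 of these 10 genes with a symbol fell past the threshold in both treatments, the exception being OCT5 (-0.18 in the reference, adjusted p = 0.757, and -0.83 with EAA, adjusted p = 0.122).

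The named falls known by locus code had gaps between the arrays about as wide as that of BGLU44. AT1G56300 read 10.38, 10.07 and 10.16 on day 1 and 9.79, 4.19 and 9.85 on day 5. AT2G39920 read 9.51, 9.16 and 9.29 on day 1 and 8.84, 3.94 and 9.14 on day 5. AT4G32340 read 10.61, 10.48 and 10.70 on day 1 and 10.31, 5.24 and 10.21 on day 5. In all 3 genes replicate 2 went from a high signal to one near the low end, while replicates 1 and 3 stayed within 0.48 of the day 1 mean. In the reference the falls were 6.09 for AT1G56300 (SE 0.22, adjusted p = 1.45e-09) and 5.65 for AT2G39920 (SE 0.13, adjusted p = 5.37e-11), close to the -6.01 and -5.38 of replicate 2. AT4G32340 fell by 4.56 in the reference and by 4.58 with EAA, against -5.36 in replicate 2.

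In the named rises of this class replicate 2 was the highest array. LEA18, a LEA protein, read 3.27, 3.70 and 3.39 on day 1 and 3.10, 6.25 and 3.31 on day 5, and AtLEA4-1 of the same kind differed by 2.17 in replicate 2. Hop3, a co-chaperone that links heat shock proteins 70 and 90, read 3.01, 3.20 and 3.28 on day 1 and 3.05, 5.90 and 3.09 on day 5. These genes were at the low end of the signal in every MEA array but replicate 2, so the size of their rise is uncertain. SIS, a serine-rich protein named for its induction by salt, read 7.76, 8.19 and 7.47 on day 1 and 8.15, 10.46 and 7.62 on day 5. SWEET1, a glucose transporter, read 6.92, 6.37 and 6.66 on day 1 and 6.23, 9.11 and 6.31 on day 5. UBC32, a ubiquitin-conjugating enzyme of the endoplasmic reticulum, read 7.79, 7.65 and 7.70 on day 1 and 7.91, 9.80 and 7.54 on day 5. Each was high in replicate 2 and within 0.42 of the day 1 mean in the other 2 arrays.

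The methionine salvage enzyme ARD4, the prenylcysteine methylesterase PCME, the copper amine oxidase CuAO1 and CHAT, which makes the leaf volatile hexenyl acetate, differed by 2.24, 2.01, 1.80 and 3.20 in replicate 2. Among genes known by locus code, AT5G01300 read 5.34, 5.23 and 4.97 on day 1 and 4.83, 9.92 and 4.79 on day 5. AT2G20560 and AT5G47610 differed by 4.44 and 3.73 in replicate 2, and their other differences lay between -0.48 and 0.14. All 10 named rises with a symbol passed the test with EAA, with changes from 1.27 (CuAO1, SE 0.16, adjusted p = 5.13e-05) to 2.79 (Hop3, SE 0.52, adjusted p = 0.000926). In the reference, CHAT (0.07, adjusted p = 0.886), LEA18 (0.72, adjusted p = 0.193) and AtLEA4-1 (0.56, adjusted p = 0.0805) did not pass, and the 7 other genes did. LEA18, AtLEA4-1 and Hop3 averaged 3.45, 3.57 and 3.16 with MEA on day 1, under the filter of 4.01. They passed the filter through their high day 5 arrays, EAA among them, so their calls over time are partly built in.

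A small group moved in opposite directions within the day 5 MEA arrays. In 24 probe sets replicates 1 and 3 were lower and replicate 2 higher, and in 5 the reverse held. LEA4-5 (AT5G06760), a LEA protein of salt and drought responses, read 6.93, 6.57 and 6.37 on day 1 and 4.97, 10.57 and 3.90 on day 5. Replicate 2 lay above all 3 day 1 arrays and replicates 1 and 3 below them, with differences of 3.95, -1.65 and -2.73. AT3G02480 read 6.96, 7.13 and 7.17 on day 1 and 5.57, 10.99 and 4.12 on day 5, in the same order. ZW9 had smaller gaps, with differences of -1.32, 1.05 and -1.06 in replicates 1, 2 and 3. With EAA, 22 of the 24 were called higher (91.7%, against 20.5% of all probe sets), LEA4-5 by 4.02 (SE 0.55, adjusted p = 0.000102). In the reference 12 of the 24 were called higher, LEA4-5 by 1.92 (SE 0.55, adjusted p = 0.0145), and none lower. The mean over the 3 arrays hides these genes, since the fitted difference of LEA4-5 was -0.14 (SE 1.17, adjusted p = 0.960). In the other direction, AT3G18250 read 5.67, 5.05 and 5.52 on day 1 and 7.01, 4.13 and 6.43 on day 5.

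Replicates 1 and 3 without replicate 2 shared 8 rises and 17 falls, and replicates 2 and 3 without replicate 1 shared 2 rises and 37 falls. Replicates 1 and 2 without replicate 3 shared 28 rises and 54 falls. In the reference, 22 of those 28 rises (78.6%) and 48 of those 54 falls (88.9%) were called the same way. Of all probe sets, 19.5% were called higher there and 22.1% lower. For replicates 2 and 3 the counts were 2 of 2 rises and 33 of 37 falls. For replicates 1 and 3 they were 2 of 8 rises and 5 of 17 falls, nearer to the shares of all probe sets. In replicate 1 alone, rises were seen in psaC, a subunit of photosystem I (1.70), in petN of the cytochrome b6f complex (1.38) and in rps15, a plastid ribosomal protein (1.37), all read from the plastid genome. The photosystem I gene psaA was lower there (-1.16), as were ATATH8 (-1.15) and the sucrose transporter SWEET13 (-1.11). In replicate 3 alone STOMAGEN, a peptide that promotes stomata, was higher (1.12), and the methyltransferase BSMT1 (-1.91) and the RNA polymerase I subunit NRPA1 (-1.16) were lower.

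**Figure D4:**
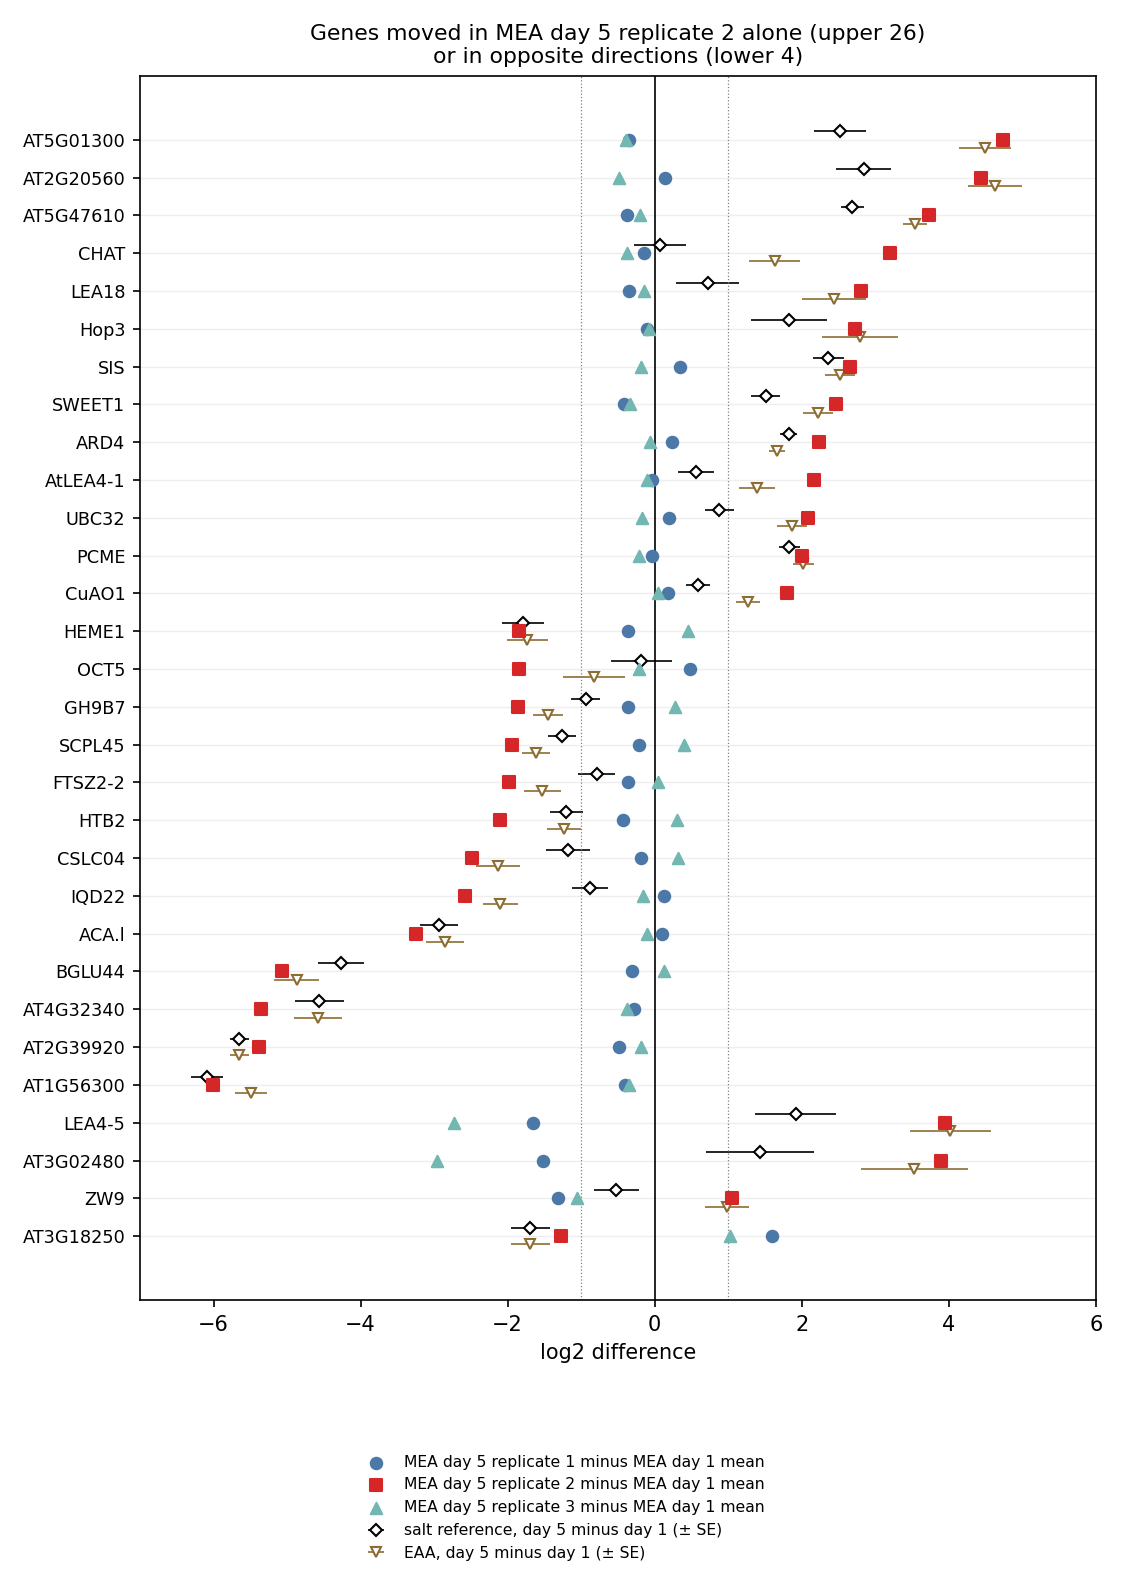
Log2 difference of each MEA day 5 array from the MEA day 1 mean (filled symbols) for the 26 genes named among those that moved in replicate 2 alone and the 4 that moved in opposite directions, with the day 5 minus day 1 difference of the reference and EAA (open symbols, bars ± SE, 3 arrays a day). For BGLU44 the square of replicate 2 (-5.07) lies near the open symbols (-4.27 and -4.87), and for CHAT (3.20) it lies beyond them (0.07 and 1.63), while replicates 1 and 3 lie near 0 for the upper 26 and on the other side of it from replicate 2 for LEA4-5.

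With the 3 arrays averaged, the model over all 18 arrays called 535 probe sets between day 5 and day 1 with MEA (3.92%), 217 higher (1.59%) and 318 lower (2.33%). Centring each array on its median turned the split to 272 higher and 193 lower of 465, so the overall balance of rises and falls depends on the scaling. That step shifts replicates 1, 2 and 3 by 0.04, 0.11 and 0.08. In 533 of the 535 the 3 arrays of day 5 lay beyond all 3 of day 1. The calls rest on these same arrays, so this gap is largely built in and adds no support. Its share among all probe sets is not given here. The calls included 77 of the 85 probe sets moved in all 3 arrays, which use the same arrays, and 4 of the 1190 moved in replicate 2 alone. A model on the 6 MEA arrays alone called 0, with 1336 at an unadjusted p under 0.05 and a smallest adjusted p of 0.085. Without replicate 2 there were 1042 calls (7.63%), 439 of them shared with the 535. Without replicate 1 there were 565 and without replicate 3 there were 1756, and leaving out an array of day 1 gave 111 (replicate 3), 164 (replicate 1) or 205 (replicate 2). With replicate 2 as the only array of day 5 there were 5168 (37.9%), a fit that assumes that a lone array varies like the other groups. Down-weighting arrays by their fit to the model gave 3233 calls, with a weight of 0.0763 for replicate 2, 0.335 for replicate 3 and 1.73 for replicate 1.

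COR27 had the smallest p-value of the genes with a symbol in this fit, with a fall of 3.86 (SE 0.44, adjusted p = 0.000593) and replicate 2 apart, as described above. The next falls had closer arrays. OTP81 (AT2G29760), a protein of chloroplast RNA editing, read 4.53, 4.53 and 4.61 on day 1 and 3.78, 3.76 and 3.67 on day 5. BGLU25, a second beta-glucosidase, read 7.11, 7.60 and 7.59 on day 1 and 6.31, 6.45 and 6.25 on day 5. In neither did replicate 2 stand apart. OTP81 fell by 0.82 with MEA (SE 0.11, adjusted p = 0.00114) and BGLU25 by 1.09 (SE 0.15, adjusted p = 0.0012). Over time without MEA, OTP81 did not pass the test (-0.29, adjusted p = 0.087 in the reference, and -0.21, adjusted p = 0.193 with EAA). A test of the difference between MEA and these treatments did not pass either (adjusted p = 0.162 against the reference and 0.345 against EAA, limma). The protease inhibitor SERPIN1 fell by 1.00 (SE 0.17, adjusted p = 0.00473), and the methionine aminopeptidase MAP1C fell by 1.32 (SE 0.24, adjusted p = 0.00765), with day 5 arrays at 7.07, 6.42 and 7.84. BGLU25, SERPIN1 and MAP1C also fell past the threshold in the reference and with EAA.

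Among the rises, IAGLU, which joins glucose to the auxin indole acetic acid, read 5.16, 5.62 and 5.37 on day 1 and 6.74, 6.84 and 6.27 on day 5. HYH, a bZIP factor of light signalling, read 3.88, 3.96 and 3.53 on day 1 and 4.95, 5.50 and 4.56 on day 5. All 3 arrays were above day 1 in both genes. IAGLU rose by 1.23 (SE 0.18, adjusted p = 0.00202) and HYH by 1.21 (SE 0.25, adjusted p = 0.0163). The cytochrome P450 gene CYP78A9, the mannitol-induced membrane protein MAMI and the cytochrome c gene CYTC-2 rose by 0.93, 0.72 and 0.89 (adjusted p = 0.0198, 0.0203 and 0.0253). Without MEA these 5 genes rose past the threshold in both treatments, except CYP78A9 with EAA (0.43, adjusted p = 0.0837, limma).

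The change over time with MEA was then set against that of the other treatments, with the difference itself tested in the 18-array fit. Against the reference 14 probe sets passed (0.103%), and in all 14 the reference had the larger change. They pair with 1 gene in 5 cases. AT1G65490 read 8.49, 8.36 and 8.43 on day 1 and 10.44, 9.94 and 9.77 on day 5 with MEA, and 8.41, 8.72 and 8.56 on day 1 and 11.47, 11.65 and 11.76 on day 5 in the reference. Its rise was smaller with MEA in all 3 arrays, by 1.45 (SE 0.22, adjusted p = 0.0202), and replicate 2 did not stand apart. AT4G15430, AT5G11930 and AT1G30260 rose in the reference, by 2.36, 1.78 and 0.69, and did not pass over time with MEA (0.49, 0.26 and -0.12). The change with MEA minus that in the reference was -1.87 for AT4G15430 (adjusted p = 0.0391), -1.51 for AT5G11930 (adjusted p = 0.0485) and -0.81 for AT1G30260 (adjusted p = 0.0391). AT4G14270 fell less with MEA, with a difference of 1.88 (adjusted p = 0.0345). These 5 names follow from the count and were not chosen by the rule for named genes. Of genes with a symbol, CCL, AGL24 and UGT85A2 had the smallest p-values, with adjusted p = 0.0706, 0.0797 and 0.0843, none past the threshold. Leaving out any 1 of the other 11 arrays of this comparison gave between 0 and 59 calls, the highest without reference day 5 replicate 2 and 0 without MEA day 1 replicate 2 or 3 or reference day 1 replicate 3.

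Against EAA 0 probe sets passed (0.0%), with 1715 at an unadjusted p under 0.05 and a smallest adjusted p of 0.243. LPR2, M10 and SGT1A came first among genes with a symbol, each at an adjusted p of 0.345. Without replicate 2 the count was 3104 against the reference (22.7%) and 3782 against EAA (27.7%). With replicate 2 as the only MEA array of day 5 it was 318 against the reference and 0 against EAA. Whether MEA leaves differed in time from the others therefore rests on which day 5 arrays are read.

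The gene lists below were read against all 13648 probe sets, and only a part of their members has a named probe set, all of which passed the filter unless stated. With MEA 1.59% of all probe sets were called higher and 2.33% lower, so that 0 or 1 call is near the background in lists of this size. The median difference over all probe sets was -0.07, 0.03 and -0.05 in replicates 1, 2 and 3, so medians of a list near 0 have no firm direction. Of 19 clock and evening genes 3 were measured, and their medians were -1.88, -4.61 and -1.50. GI, a core clock protein that sets flowering time, differed by -0.52, -2.91 and -0.52 and did not pass with MEA (-1.32, adjusted p = 0.135), while COR27 and AT4G33980 did. All 3 fell in the reference and with EAA, GI by 2.25 (adjusted p = 4.64e-05) and by 1.83 (adjusted p = 0.000211).

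Of 13 light signalling genes 2 were measured, and both rose in all 3 comparisons over time. AFR, an F-box protein of phytochrome A signalling, differed by 1.29, 4.01 and 0.92 in MEA replicates 1, 2 and 3 and rose by 2.08 in the fit (adjusted p = 0.0397). In the reference it rose by 3.93 (adjusted p = 5.19e-10). HYH, described above, was the other. Of 12 chlorophyll synthesis genes 2 were measured. PORB, a protochlorophyllide oxidoreductase, differed by -1.0, -5.71 and -0.41, with replicate 2 near the fall of 5.27 in the reference (adjusted p = 5.84e-06). CHLM, a methyltransferase of the pathway, differed by 0.15, -1.47 and 0.65. Neither passed with MEA. The light-harvesting genes LHCB4.1 and LHCB4.2, the 2 of 16 that were measured, differed by -0.83 to 0.36 in the 3 arrays, and neither passed.

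Tubulins, the subunits of microtubules, had 7 of 15 members measured, and 2 fell with MEA, TUA6 by 0.78 (adjusted p = 0.0463) and TUB9 by 1.31 (adjusted p = 0.0135). In the reference and with EAA 5 of the 7 fell, against 22.1% and 25.3% of all probe sets. TUB5 read 8.97, 8.90 and 9.04 on day 1 and 8.25, 2.91 and 9.06 on day 5 with MEA, against falls of 4.65 in the reference (adjusted p = 9.59e-08) and 4.77 with EAA (adjusted p = 9.58e-08). TUB5 in replicate 2 reached the low end of the signal, and replicate 3 had not moved. Of 12 measured xyloglucan hydrolases and expansins, which loosen cell walls, 0 passed with MEA. In replicate 2, 5 of them moved lower (11.4% of all probe sets did), among them EXPA8 (0.51, -3.45 and 1.36) and EXPB3 (-0.55, -2.32 and 0.94), and EXLB1 moved higher (-1.42, 2.57 and -0.90).

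Genes of the response to drying and cold gave 5 measured of 19, with 0 past the threshold with MEA. COR15B, a chloroplast protein that protects membranes in the cold, differed by -1.13, -5.06 and -0.66, and it fell by 3.11 in the reference (adjusted p = 4.65e-07). COR15A, its close relative, differed by -0.84, -0.66 and -0.59, so that 2 similar genes had different gaps between the arrays. The dehydrin LTI30 was lower in replicates 1 and 3 (-1.57 and -1.29) and not in replicate 2 (0.10). COR47 lay between -0.82 and -0.39, and LEA4-5 is given above. Of 7 heat shock proteins and co-chaperones 0 passed. In replicate 2, 4 of the 7 moved higher and 1 lower, against 8.57% and 11.4% of all probe sets. The 4 were Hsp70-2 (2.14), Fes1A (1.45), Hop2 (1.16) and Hop3 (2.73). Replicate 3 was lower in Hsp70-2 (-1.05) and Fes1A (-1.02), where 2.53% of all probe sets moved lower. With EAA and in the reference 4 of the 7 rose and 3 fell, against 20.5% and 25.3% of all probe sets with EAA and 19.5% and 22.1% in the reference.

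Sugar and starch genes also split by array. Of 6 SWEET transporters that passed the filter, of 14, 0 passed the test with MEA, where 3.92% of all probe sets did. In the reference 4 rose and 2 fell, against 19.5% and 22.1% of all probe sets. SWEET4 differed by -2.01, 0.55 and -1.89 and SWEET11, an exporter of sucrose, by -1.10, 1.05 and -0.68, so replicates 1 and 3 were below day 1 and replicate 2 above it. Of 4 starch genes, PWD, a kinase that starts starch breakdown, fell by 1.09 with MEA (adjusted p = 0.0132). DPE1, which recycles short glucans, differed by -0.89, -4.00 and -0.42, and the starch synthesis subunits APL3 and APL4 by -0.90, 1.82 and -0.41 and by -1.14, 3.11 and -0.17. Of 4 measured senescence genes that passed the filter, PPDK rose with MEA by 1.14 (adjusted p = 0.0337). SAG29, a marker of ageing leaves, differed by 0.93, 5.42 and -0.55, and WRKY53, a senescence factor, by 1.75, -1.31 and -0.35.

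Of 7 flavonoid and anthocyanin genes that passed the filter 0 passed the test with MEA (3.92% of all probe sets did), and 5 moved higher in replicate 2 (8.57% did). DFR, which makes anthocyanin precursors, differed by -1.28, 1.51 and 0.28, and it did not pass in the reference (0.50, adjusted p = 0.593) or with EAA (-0.60, adjusted p = 0.502). UF3GT, AT4G14090 and AT5MAT, listed with it, differed by 1.63, 1.85 and 1.07 in replicate 2 and did not pass without MEA either (adjusted p of 0.645 to 0.987). Single arrays without MEA were as high. DFR read 9.33, 6.71 and 7.83 on day 5 in the reference, against a day 1 mean of 7.46, and UF3GT read 9.02, 6.49 and 7.72, against 7.49. The day 5 arrays of the reference thus spread as widely in these genes (SD 1.32 and 1.26, n = 3) as those with MEA (SD 1.4 and 1.33, n = 3). UGT78D2, also higher in replicate 2 (0.11, 1.67 and 0.50), did rise in the reference (1.76, adjusted p = 2.61e-05, limma) and with EAA (0.86, adjusted p = 0.0043). CHIL rose in the reference by 1.91 (adjusted p = 0.0003), and UGT78D1 fell with EAA by 0.94 (adjusted p = 0.00243). Of 12 antioxidant enzymes 4 were measured, and 0 passed with MEA. The glutathione reductases GR1 and GR differed by 0.23, 1.53 and 0.45 and by 0.26, 0.97 and 0.57. SAPX differed by 0.20, 0.99 and 0.66, and TAPX went the other way in replicate 2 (0.21, -1.26 and 0.60). In the reference and with EAA, TAPX fell past the threshold and GR1, GR and SAPX rose.

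Of 6 beta-glucosidases that passed the filter, of 20, BGLU25 and BGLU42 fell with MEA, BGLU42 by 0.77 (adjusted p = 0.0398), and 4 fell in the reference (22.1% of all probe sets did). Of 13 serine carboxypeptidase-like genes that passed, of 29, SCPL49 fell by 0.87 (adjusted p = 0.0156) and scpl20 by 0.41 (adjusted p = 0.0357), and 7 fell in the reference and 9 with EAA (22.1% and 25.3% of all probe sets did). Of the 13, 7 moved lower in replicate 2, 1 in replicate 1 and 0 in replicate 3, against 11.4%, 2.48% and 2.53% of all probe sets. Among the 69 measured genes of the plastid genome, 8 moved higher in replicate 1 (11.6%, against 1.95% of all probe sets) and 1 lower. In replicate 2 a single plastid gene moved, and in replicate 3 none did. Their medians were 0.44, 0.05 and 0.30, and only rps18 passed with MEA, a rise of 0.62 (adjusted p = 0.0453). Labelling began with poly(T) primers, and replicate 1 also had the highest 3' to 5' difference of GAPDH among the MEA arrays (2.11), whose part in this was not tested.

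**Figure D5:**
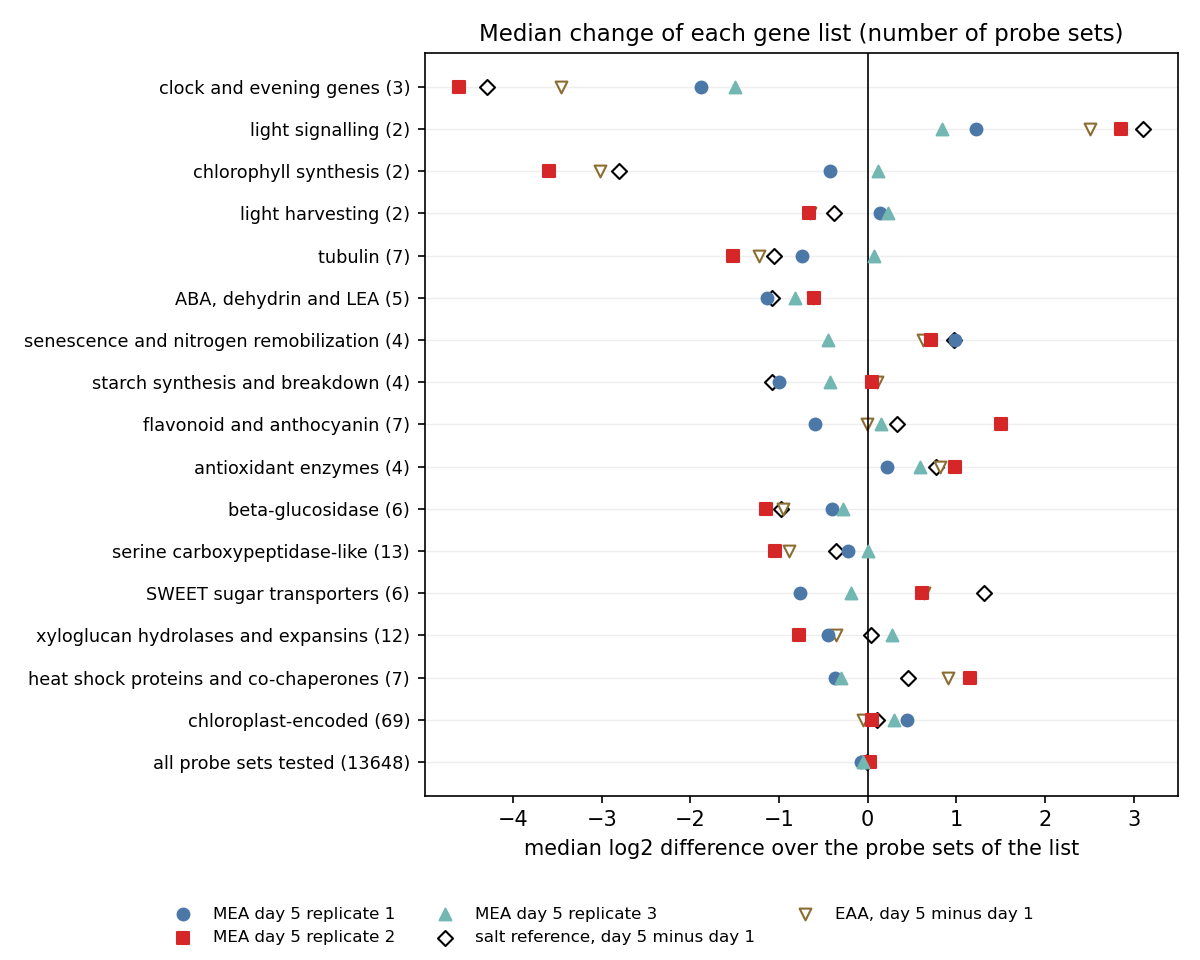
Median log2 difference over the probe sets of each gene list (their number in brackets), for each MEA day 5 array against the MEA day 1 mean (filled symbols) and for day 5 minus day 1 in the reference and EAA (open symbols). Replicate 2 lies on the side of the open symbols for the clock, light signalling, chlorophyll and tubulin lists, with medians of -4.61, 2.86, -3.59 and -1.52, and replicates 1 and 3 lie closer to 0 in them.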

How the data were processed

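The samples were 18 Affymetrix arrays of leaf RNA, 6 of them with MEA. Per the labels' protocols 10 µg of total RNA went into each labelling. The authors deposited 1 table of log2 signals, as judged from its values; MAS5 is the tool per the submitters' processing notes, with its version, any scaling and the log step not given in the sources used here. All values were used as deposited. Each array was assigned by its title, or for the salt reference by its source name. Control probe sets (64) were left out, and probe sets were kept at a mean log2 signal of at least 4.01, the 40th percentile. Gene names came from the platform annotation and a RefSeq gene table; 13513 probe sets have 1 gene, 503 several and 8794 none named here. No sequences or coordinates were used. The number of arrays limits the precision.

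Linear models in limma 3.58.1 (R 4.3.3; lmFit, eBayes with trend) held a mean for each group, over 18 arrays for MEA and the differences between treatments and over the 12 others for time without MEA. The 18-array fit was tested on simulated data with the same spread in every group. That test could not cover the wider spread of the MEA day 5 group. Benjamini-Hochberg adjustment ran over the 13648 probe sets. The common spread is smaller than that of the MEA day 5 group, so p-values with that group may be too small. The labels do not say whether a replicate number marks a shared planting, so the arrays were not paired. Deviations of same-numbered arrays correlated at 0.046, 0.047 and 0.140 with MEA. They did so at -0.215, -0.441 and -0.228 in the reference and at -0.052, -0.048 and 0.121 with EAA. With 3 arrays a group these values cannot settle it. Tables and plots used Python 3.11.15, pandas 2.3.3 and matplotlib 3.10.9. Alternatives covered the scaling, the filter, the replicate block, array weights, each array left out and the limits of the classes.

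The members, gene lists and classes were chosen with earlier results of these data known. Named genes pair with 1 gene, by the probe set of highest mean signal. They are, for all 3 arrays, up to 10 each way with a symbol and 5 by locus code with the largest smallest difference. For replicate 2 alone they are the 10 and 3 with the largest difference, for opposite moves and for replicate 1 or 3 alone up to 3 each way, and for the fits the 5 each way of smallest p (3 where none passed). Members of the lists may also be named.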

Additional observations from a re-analysis of the deposited data

Results flagged for a closer look

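The change over time differed between MEA and the salt reference, by a test of the difference itself, in 14 probe sets. Of those with 1 gene, the change with MEA minus that in the reference was -1.87 for AT4G15430, 1.88 for AT4G14270, -0.81 for AT1G30260, -1.51 for AT5G11930 and -1.45 for AT1G65490. In each the reference changed more than MEA, and more than EAA as well, so the smaller change was not particular to MEA. All 5 kept their direction in every alternative tried, while most lost the threshold when a day 1 array was left out.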

How the results depend on the processing

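The 535 calls with MEA became 0 on the 6 MEA arrays alone, 3233 with array weights and 5168 with replicate 2 alone on day 5, and ran from 111 to 1756 with 1 array left out. The 14 differences from the reference became 6 with quantile normalization, 6 without a filter, 4 with the replicate block and 318 with replicate 2 alone, and ran from 0 to 3104 with 1 array left out. The 0 differences from EAA ran from 0 to 3782, above 0 only without MEA day 5 replicate 2. The cause was not tested. The calls over time ran from 4477 to 5677 in the reference and from 4922 to 6069 with EAA with 1 array left out. The 85 probe sets moved in all 3 arrays became 284 at a limit of 0.6 and 7 at a limit of 2, and ran from 76 to 99 with a day 1 array left out. The 1190 moved in replicate 2 alone became 2767 at 0.6, 219 at 2 and 547 with replicates 1 and 3 held under 0.3, and ran from 1155 to 1217. Those also called the same way without MEA ran, with 1 array left out (chosen after seeing the data), from 78 to 82 and 76 to 80 for all 3 arrays, and from 857 to 1003 and 1054 to 1128 for replicate 2 alone, in the reference and with EAA. The replicate block gave 531 calls with MEA. No named gene past the threshold changed direction in any alternative, and 95 of 461 values of the 31 such genes with MEA lost it. Signals under about 4 limit the size of a fall.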

Other observations

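Replicate 1 of MEA on day 5 held 3 genes far above every other array of the comparison, chosen here after their values were seen as the 3 largest differences of that array among probe sets with 1 gene. OSM34, an osmotin-like protein of the pathogen response, read 3.72, 4.85 and 3.62 on day 1 and 9.38, 3.24 and 3.64 on day 5. PDF1.2b, a plant defensin, read 5.48, 6.21 and 5.55 on day 1 and 10.15, 4.07 and 5.80 on day 5. AT4G16260 read 4.53, 5.19 and 3.65 on day 1 and 8.78, 3.52 and 4.04 on day 5. In all 3 genes replicate 1 alone was high, and replicate 2 lay below every day 1 array. None passed the test over time with MEA (adjusted p = 0.489, 0.652 and 0.572).

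The largest named differences of the other arrays were of genes known mostly by locus code. In replicate 2 AT3G17520 read 10.94, against 4.44 to 5.03 on day 1 and 5.17 and 3.41 in replicates 1 and 3, and with EAA it rose by 5.50 (SE 0.63, adjusted p = 2.6e-05). AT4G30650 read 5.16 in replicate 2, against 11.43 to 12.05 on day 1. In replicate 3 AT5G05600 read 6.06, against 9.37 to 9.43 on day 1, 9.41 in replicate 1 and 8.35 in replicate 2.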
